A study of Mus musculus with 3 samples.

Results

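The genes described here code for the enzymes that attach ubiquitin to proteins or take it off again, together with subunits and relatives of those enzymes. They were chosen by symbol: genes that the probe-to-gene table gives with a single symbol starting with Uba, Ube2, Ube3, Ube4, Ubr, Cul, Fbxl, Fbxo, Fbxw, Rnf, Trim, Usp, Uch or Otu, and with at least 1 probe holding a value other than 0 on all 3 arrays. By this rule 149 genes with 243 probes were on the array, and 110 of them, with 160 probes, were measured, out of 6077 measured genes in all. The symbols are those of families, so the 110 genes also hold 5 RNAs that RefSeq does not list as protein-coding or does not hold, and proteins of these families that work with other modifiers or have no known enzyme activity. The data are log ratios from 3 arrays, all of 1 group and each hybridised in both colours. Total RNA of mouse spleen, bought from a supplier and labelled red with Cy5 after 1 round of amplification to cRNA, was set on every array against the Universal Mouse Reference RNA (UMRR), a bought pool of RNA from mouse cell lines, labelled green with Cy3 in the same way. The labels give no strain, age, sex or number of animals for the spleen RNA and no dye swap, so dye bias and a real difference between spleen and reference cannot be told apart.

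The log base and the numerator of the deposited ratios are not stated. A positive value was taken as likely higher in spleen, which rests on the dyes and on cell type markers: past the test and positive were 8 of 8 measured erythroid genes, 4 of 4 of macrophages, 4 of 4 of B cells and 5 of 6 of T cells, and 5 of 5 fibroblast and matrix genes were negative. The T cell receptor gene Cd3d was the exception, with a mean of -0.85, and the measured markers of a list were few, 4 of 10 for B cells. The sample titles name the reference first, which could mean the opposite order. The spleen RNA also held exocrine pancreas transcripts by this reading, with 8 of 9 measured genes positive, a list median of 4.29 and list means of 3.67 to 3.83 on the 3 arrays. Their part in the results below was not tested. Each RNA came under a single product number, so all 3 arrays may hold the same pair of extracts; the p-values then measure technical spread between arrays only. Folds are given for base 2 first and for natural logs second. In whole tissue RNA, fewer cells of a type and less RNA per cell cannot be told apart.

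Ubiquitin is passed along a chain of enzymes. An activating enzyme (E1) charges it, a conjugating enzyme (E2) carries it, and a ligase (E3) chooses the protein that receives it, which can mark that protein for the proteasome, move it to another compartment or change its partners. Most ligases hold a RING domain that brings the loaded E2 to the substrate, and cullins build larger ligases in which an F-box or similar subunit binds the substrate. Deubiquitinases cleave ubiquitin off again, and in spleen this system is known above all for controlling immune signalling, antigen presentation and red cell maturation.

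Ubiquitin system genes chosen by symbol were more often positive than negative. Of the 110 genes, 48 were past the test and positive (43.6%, beside 33.2% of all genes tested), 28 were past it and negative (25.5%, beside 37.1% of all genes) and 34 did not pass, with limma and an adjusted p under 0.05. Of all genes 70.3% passed. The median log ratio of the 110 genes was 0.08, beside -0.03 over all 6077 genes, and on the 3 arrays it was 0.12, 0.04 and 0.08. No test was made of the difference between these shares or medians. Without limma's moderation of the variance 26 of the 110 genes were positive and 17 negative, beside 1375 and 1395 of all 6077 genes. Against a 1.5-fold change the counts were 13 and 8, beside 626 and 582 over all genes. Most ratios were small, in the set and over all genes. If the base is 2, 11 of the 110 genes were called with at least a 2-fold ratio, beside 860 of all 6077 genes (14.2%). If the logs are natural, 22 of the 110 were, beside 1527 of all genes (25.1%). The value had the sign of its mean on all 3 arrays for 92 of the 110 genes, beside 5021 of all 6077. Across the 110 genes, Pearson's r was 0.920 between arrays 1 and 2. It was 0.954 between arrays 1 and 3 and 0.911 between arrays 2 and 3. Over all genes these values were higher, at 0.962, 0.972 and 0.957. The genes of an array share its RNA, dyes and hybridisation. Array 2 was the farthest from the mean for 48 of the 110 genes (43.6%, beside 42.2% of all genes), and for 8 of the 10 genes whose SD over the arrays was above 0.3 (181 of 354 among all genes, 51.1%). The plot of shares by family shows both directions beside those of all genes.

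**Figure D1:**
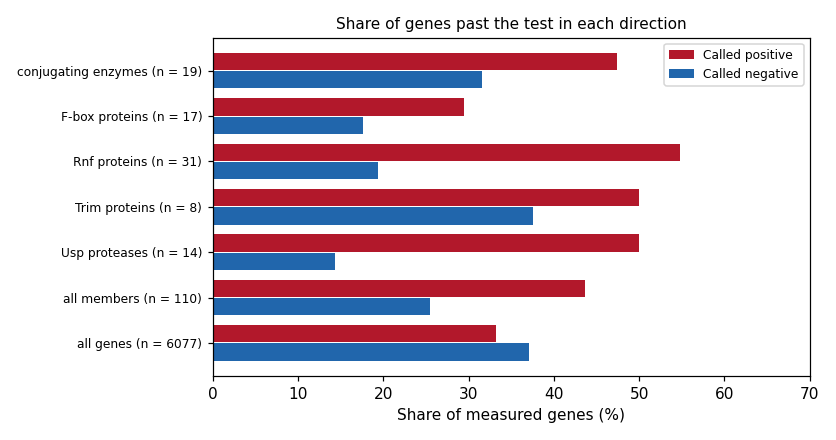
Share of measured genes (percent, horizontal axis) past the limma test with a positive (red) or negative (blue) log ratio, by family, over all ubiquitin system genes and over all genes. The Rnf proteins had 54.8% positive and 19.4% negative, and all genes 33.2% and 37.1%.

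Conjugating enzymes held the highest ratio of the set and spread to both sides. Of 19 measured genes with an Ube2 symbol, 9 were past the test and positive (47.4%, beside 33.2% of all genes). Negative were 6 (31.6%, beside 37.1% of all genes) and 4 did not pass, and the median of the 19 was 0.10. Ube2l6 is the conjugating enzyme of the interferon-induced modifier ISG15 and is itself induced by interferon. Its log ratio was 2.71, 3.01 and 2.84 on arrays 1 to 3, with a mean of 2.85 ± 0.15 (SD, n = 3; limma adjusted p = 2.10e-07), which is 7.22-fold or 17.3-fold. It ranked 77 from the top among all 6077 genes. The lowest of its values was above every value of the other 109 genes. A second Ube2l6 probe held 2.80 and 2.81 on arrays 2 and 3 and exactly 0 on array 1. With such zeros kept as values the mean of Ube2l6 was 2.36 and its call ended (limma adjusted p = 0.0506). The 4 measured interferon-induced marker genes were also positive, with Igtp, an interferon-induced GTPase, at 2.12, the transcription factor Stat2 at 1.47, Iigp1 at 0.49 and Bst2 at 0.31. Their part in the ratio of Ube2l6 was not tested. The promoter of Ube2l6 is printed because this gene had the highest ratio, as 250 bases before to 50 after its start in RefSeq (GRCm38.p6, chr2:84798578-84798877, plus strand, 5′ to 3′).
Ube2l6: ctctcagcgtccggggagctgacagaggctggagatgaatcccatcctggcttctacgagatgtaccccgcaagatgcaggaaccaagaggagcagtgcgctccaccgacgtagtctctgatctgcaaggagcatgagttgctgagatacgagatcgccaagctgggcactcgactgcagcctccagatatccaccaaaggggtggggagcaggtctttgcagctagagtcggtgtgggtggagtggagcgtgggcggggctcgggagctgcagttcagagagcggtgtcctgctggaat
Capitals, here and in the promoters that follow, mark matches on either strand to 5 words: the interferon-stimulated response element (GAAA, 2 bases of any kind, GAAA), the cell cycle homology region TTTGAA or TTCGAA, the CCAAT box, the ETS factor core CCGGAAG and the element TCTCGCGA. None of the 5 words is in this window, which says nothing of the factors.

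Ube2f carries NEDD8, the modifier that activates cullins. It had log ratios of 0.98, 0.97 and 1.06, with a mean of 1.00 ± 0.049 (SD, n = 3; 2.00-fold or 2.72-fold). All 4 of its probes were past the probe test and positive, with means from 0.85 to 1.07, and the arrays lay within 0.1 of each other. The E2 of the CTLH ligase complex, Ube2h, held 0.90, 0.84 and 0.84, a mean of 0.86 ± 0.035 (SD, n = 3). Ube2r2, a relative of Cdc34 that serves cullin ligases, held 0.94, 0.89 and 0.74, a mean of 0.86 ± 0.10 (SD, n = 3), and a further probe of it held 0 on every array. These ratios of Ube2f, Ube2h and Ube2r2 were above 0 on every array. All values of Ube2f lay above those of Ube2h and Ube2r2, which overlapped each other. Ube2q1 had a mean of 0.66, and Ube2b, which modifies histone H2B and serves DNA damage tolerance, one of 0.40, with probes at 0.69 and 0.11. Ube2cbp, which binds a conjugating enzyme and is counted here by its symbol, had 0.28, but its call ended with the trend along probe numbers removed (0.17 and 0.09 with windows of 5 and 20 probe numbers on either side; limma adjusted p = 0.0605 and 0.274) and without array 1 or array 3 (limma adjusted p = 0.0504 and 0.0739).

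The Ube2d enzymes, which work with many ligases, differed among themselves. Ube2d2a had log ratios of 0.78, 0.91 and 0.87 with a mean of 0.85 ± 0.069 (SD, n = 3), and its 5 probes had means from 0.80 to 0.93. The table gives those 5 probes 2 sequence records, so several of them repeat 1 sequence. Ube2d3 had a mean of 0.19, passed the test, and had -0.02 with a window of 5 (limma adjusted p = 0.667), and its call also ended without array 1 or array 3 (limma adjusted p = 0.172 and 0.153). Ube2d2b, an intronless copy, did not pass, with a mean of -0.03, and the Ube2d pseudogene Ube2d-ps had -0.19, with a call that ended without array 1 or array 3 (limma adjusted p = 0.135 and 0.166). On every array Ube2d2a lay above the other Ube2d members. Sequences of these members are close, so that a probe can bind more than one of them.

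The negative conjugating enzymes were led by Ube2s, which extends ubiquitin chains for the anaphase-promoting complex. It held -1.07, -0.82 and -0.82, a mean of -0.90 ± 0.15 (SD, n = 3; limma adjusted p = 3.85e-05), and both measured probes were past the probe test (-1.05 and -0.76). Ube2t, which serves the Fanconi anaemia pathway of DNA repair, held -0.59, -0.69 and -0.59, a mean of -0.62 ± 0.058 (SD, n = 3). Both genes are known to be high in dividing cells, and the measured cycling cell genes went both ways: Cdk1 was negative at -1.26 and Cdc20 at -1.03, Ccnb2 was positive at 0.37, and Ccna2, Plk1 and Cenpa did not pass (0.09, -0.12 and -0.23). Their part in the ratios of Ube2s and Ube2t was not tested. The ER-associated enzymes Ube2g1 and Ube2j2 had -0.51 and -0.50, and Ube2k, which makes ubiquitin chains, had -0.45. The calls of Ube2j2 and Ube2k ended with a window of 5 (-0.10 and -0.15; limma adjusted p = 0.106 and 0.102), and that of Ube2j2 also with zeros kept (-0.12, limma adjusted p = 0.260). A second Ube2j2 probe held 0.79 on array 3 alone. Ube2n, which builds signalling chains together with Ube2v1, had -0.29, with a call that ended with windows of 5 and 20 (-0.06 and -0.16; limma adjusted p = 0.288 and 0.0635). Its partner Ube2v1 did not pass (-0.17). Ube2e3 did not pass either (-0.08), nor did Ube2l3 (0.10), a broadly acting E2 that works with RBR and HECT ligases. With windows of 5 and 20 Ube2l3 became positive (0.26 and 0.28).

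The activating enzyme Uba6, which charges ubiquitin and the interferon-induced modifier FAT10, was negative. Its log ratio was -0.36, -0.49 and -0.38, with a mean of -0.41 ± 0.072 (SD, n = 3), and both of its probes were past the probe test. It was the only one of 3 Uba genes on the array that was measured. Uba3, the activating enzyme of NEDD8, and Uba1y held 0 on all arrays.

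**Figure D2:**
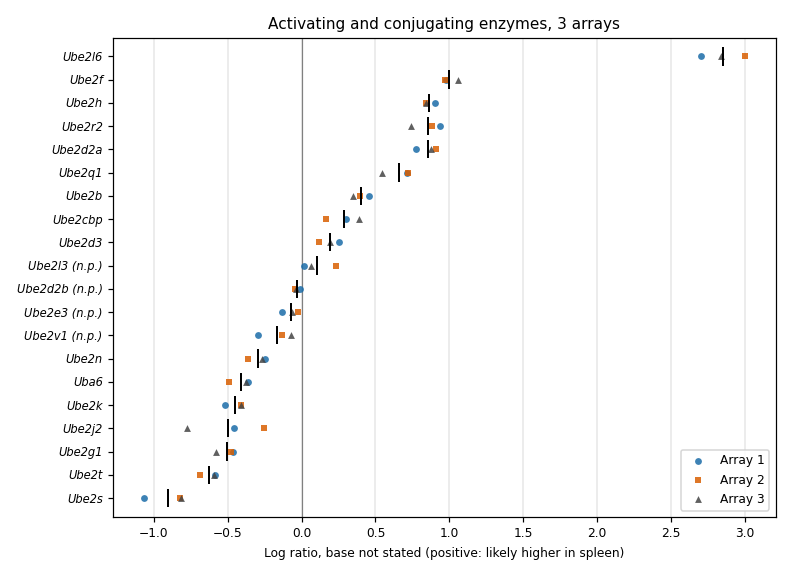
Log ratio on each array (symbols) and mean of the 3 arrays (black line) of the 19 genes with an Ube2 symbol and of Uba6, with n.p. beside genes that did not pass the test. Ube2l6 stands alone at 2.71 to 3.01, and Ube2s is the lowest at -1.07 to -0.82.

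Cullins went both ways. Of 5 measured cullins 2 were past the test and positive (40%, beside 33.2% of all genes). Another 2 were negative (40%, beside 37.1% of all genes) and 1 did not pass. Cul7, an atypical cullin that binds p53, held 0.93, 1.07 and 1.24, a mean of 1.08 ± 0.15 (SD, n = 3; 2.11-fold or 2.94-fold), and its ratio was 0.61 with a window of 5 and 0.54 with zeros kept. Its relative Cul9 held 0.90, 0.71 and 0.14, a mean of 0.58 ± 0.40 (SD, n = 3). Array 3 was far below the other arrays for Cul9. Cul5, the scaffold of ligases with SOCS-box proteins, held -0.48, -0.74 and -0.68, a mean of -0.63 ± 0.14 (SD, n = 3), and had -0.37 with a window of 5. Cul2, which carries the von Hippel-Lindau protein, had -0.28. Cul3, whose substrate adaptors hold BTB domains, held 0.13, -0.01 and -0.38 and did not pass. Cul4b held -0.63 and -0.55 on arrays 1 and 3 only, Cul4a 0.36 and 0.09 on the same arrays, and Cul1 no value.

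The promoters of Cul7 and Ube2f are shown because both genes had a ratio of about 1 and both windows hold the ETS core word (RefSeq, GRCm38.p6, chr17:46650088-46650387, plus strand and chr1:91250054-91250353, plus strand, the first of 2 windows listed for Ube2f).
Cul7: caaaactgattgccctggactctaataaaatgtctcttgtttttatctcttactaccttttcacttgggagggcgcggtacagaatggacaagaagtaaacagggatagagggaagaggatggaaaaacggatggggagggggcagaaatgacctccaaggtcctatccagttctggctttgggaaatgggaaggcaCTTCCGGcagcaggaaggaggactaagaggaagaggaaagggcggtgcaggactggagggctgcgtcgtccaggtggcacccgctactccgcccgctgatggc
Ube2f: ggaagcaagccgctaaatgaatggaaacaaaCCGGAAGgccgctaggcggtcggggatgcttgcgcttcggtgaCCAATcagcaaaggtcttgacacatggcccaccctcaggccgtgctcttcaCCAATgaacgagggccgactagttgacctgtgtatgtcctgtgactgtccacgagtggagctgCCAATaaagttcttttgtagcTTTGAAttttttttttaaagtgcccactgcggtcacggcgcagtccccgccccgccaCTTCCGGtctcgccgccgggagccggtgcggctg
The Cul7 window held 1 ETS core match, and the Ube2f window held 2 of them with 3 CCAAT boxes and 1 cell cycle homology word. RefSeq windows were found for 85 of the 110 genes, 105 windows in all. The ETS core was in 21.9% of these windows, 15.0% of the 6184 windows of all measured genes and 8.86% of all 32851 windows. It was in a window of 21 genes, of which 11 were past the test and positive (52.4%, beside 43.6% of the set). Negative were 4 (19.0%, beside 25.5% of the set) and 6 did not pass, and the median ratio was 0.19. The shares of the set are over all 110 genes, and those among the 85 genes with windows were not computed. Of 31 genes with the CCAAT box 13 were positive (41.9%, beside 43.6% of the set), 8 negative (25.8%, beside 25.5%) and 10 not passed (median 0.08). Of 14 with the cell cycle homology word 4 were positive (28.6%), 3 negative (21.4%) and 7 not passed (median -0.01). The CCAAT box was in 33.3% of the windows of the set and 37.5% of those of all measured genes, the cell cycle homology word in 13.3% and 15.6%, and the interferon-stimulated response element in 2.86% and 2.70%. The 3 genes with the last were Trim12a (0.39), Rnf146 (0.36) and Fbxo36 (-0.79).

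F-box proteins bring substrates to Cul1 ligases. Of 17 measured genes 5 were past the test and positive (29.4%, beside 33.2% of all genes). Negative were 3 (17.6%, beside 37.1% of all genes) and 9 did not pass (52.9%, beside 29.7% of all genes), and the median was -0.05. Fbxo33 had the highest ratio, with 1.38, 1.44 and 1.45 and a mean of 1.42 ± 0.033 (SD, n = 3; limma adjusted p = 1.53e-06; 2.68-fold or 4.15-fold). Fbxw11, the beta-TrCP relative that marks inhibitors of NF-kappaB for destruction, held 0.73, 0.88 and 0.33, a mean of 0.64, with array 3 below the others. All 4 probes of Fbxw2 were past the probe test and positive, with means between 0.58 and 0.65. Fbxo22 had 0.48, with array 2 at 0.07 against 0.78 and 0.59 on the others, and its call ended without array 1 (0.33, limma adjusted p = 0.0776). Fbxo3 had 0.24, with a call that ended without array 1 (limma adjusted p = 0.0875).

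Negative F-box genes were Fbxo21, Fbxo36 and Fbxl2. Fbxo21 held -0.83, -0.93 and -0.74, a mean of -0.84 ± 0.095 (SD, n = 3), which became -0.36 and -0.45 with windows of 5 and 20. Fbxo36 held -0.81, -0.87 and -0.70, a mean of -0.79 ± 0.089 (SD, n = 3), from a probe at -1.23 and another at -0.36. Fbxl2 had -0.29, and its call ended with a window of 5 (-0.03, limma adjusted p = 0.474). Among those that did not pass were Fbxo32, the muscle atrophy ligase atrogin-1 (-0.16), Fbxo5, an inhibitor of the anaphase-promoting complex (0.08), and Fbxo8, whose 3 probes all failed to pass. Fbxo34 and Fbxw27 had means of 0.26 and -0.28 in which array 2 had the opposite sign, and both passed without array 2 (0.48 and -0.52).

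Rnf proteins, the largest family here, were more often positive. Of 31 measured genes 17 were past the test and positive (54.8%, beside 33.2% of all genes). Negative were 6 (19.4%, beside 37.1% of all genes) and 8 did not pass, and the median of the 31 was 0.19. Against a 1.5-fold change the lean was gone, with 2 positive and 3 negative Rnf calls, beside 626 and 582 over all genes. Rnf167, a ligase of endosomes and lysosomes, held 1.73, 1.78 and 1.89, a mean of 1.80 ± 0.079 (SD, n = 3; limma adjusted p = 7.04e-07; 3.48-fold or 6.04-fold). It was the second highest of the 110 genes. Its promoter is shown because it holds 3 matches to the element TCTCGCGA (RefSeq, GRCm38.p6, chr11:70646985-70647284, plus strand).
Rnf167: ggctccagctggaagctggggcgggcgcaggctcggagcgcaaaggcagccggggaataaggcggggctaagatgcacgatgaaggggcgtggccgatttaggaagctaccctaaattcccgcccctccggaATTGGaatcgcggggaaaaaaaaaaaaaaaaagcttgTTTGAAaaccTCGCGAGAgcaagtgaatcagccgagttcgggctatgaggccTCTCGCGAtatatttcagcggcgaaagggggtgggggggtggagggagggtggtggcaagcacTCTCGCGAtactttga
This word was added to the search after that window was read. It was in 6.67% of the windows of the set, 1.94% of those of all measured genes and 0.995% of all windows. The 5 genes with it were Rnf167, Ube2d3 (0.19), Rnf149 (0.01), Cul3 (-0.08) and Ubr7 (-0.22), so its windows belonged to genes on both sides. The Rnf167 window also held 1 CCAAT box and 1 cell cycle homology word.

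Rnf167 belongs to a family of membrane ligases with a protease-associated domain, whose other measured members had lower ratios. Rnf130 had a mean of 0.48 and Rnf13 one of 0.28, both past the test, and Rnf149 did not pass (0.01). Rnf128, known as GRAIL and for its part in T cell anergy, held -1.01, -0.89 and -1.08, a mean of -0.99 ± 0.095 (SD, n = 3), and a second probe held -2.59 on array 3 alone. With zeros kept the mean was -0.93 and the call ended (limma adjusted p = 0.208). The 3 arrays gave the order Rnf167, Rnf130, Rnf13, Rnf149, Rnf128 each time. With a window of 5 Rnf130 had 0.18, and the call of Rnf13 ended (0.12, limma adjusted p = 0.123).

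A second group of relatives, Rnf125, Rnf138 and Rnf166, which share a ubiquitin-binding motif behind the RING, was also split. Rnf125, a regulator of antiviral signalling first described in T cells, held -0.88, -0.64 and -0.98, a mean of -0.83 ± 0.17 (SD, n = 3). Rnf166 had 0.56 but -0.16 with a window of 5 (limma adjusted p = 0.0786). Rnf138 had 0.21 over 5 probes, of which 3 were past the probe test and positive and 2 did not pass, and its call ended without array 1 or array 3 (limma adjusted p = 0.0827 and 0.147). Rnf180 was the lowest Rnf gene, with -1.34, -1.02 and -1.50, a mean of -1.28 ± 0.24 (SD, n = 3; 2.44-fold or 3.61-fold), and it had -0.84 with a window of 20. Rnf168, which marks histones at DNA breaks, held -0.39, -0.68 and -1.06, a mean of -0.71 ± 0.33 (SD, n = 3).

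Further positive Rnf genes were Rnf113a2, a copy of a splicing-associated gene, with 1.01, 1.11 and 0.69 and a mean of 0.94 ± 0.22 (SD, n = 3), Rnf115 at 0.60, Rnf216 at 0.57, Rnf208 at 0.45 and the RBR ligase Rnf14 at 0.38. Rnf115 had 0.22 with a window of 5, and Rnf216 had 0.29 with zeros kept. Rnf146, which recognises poly-ADP-ribose, had 0.36, and the paralogs Rnf185 and Rnf5, both of ER-associated degradation, had 0.32 and 0.20, with 0.17 for Rnf185 under a window of 5. The call of Rnf5 ended without array 1 or array 3 (limma adjusted p = 0.216 and 0.244), as did those of Rnf214 (0.19, with 4 probes of 1 sequence record; limma adjusted p = 0.190 and 0.169) and Rnf41 (0.19; limma adjusted p = 0.184 and 0.121). Rnf220 had 0.26 and lost its call without array 3 (limma adjusted p = 0.0778) and with a window of 5. Rnf7, the RING subunit that works with Ube2f to attach NEDD8 to Cul5, was negative at -0.28, on the side of Cul5 (-0.63) and opposite to Ube2f (1.00), and its call ended without array 3 (limma adjusted p = 0.0625). Rnf11 had -0.30, with a call that ended without array 1 (limma adjusted p = 0.0742). Rnf2, a catalytic subunit of Polycomb repressive complexes, did not pass (0.00), but was positive with a window of 20 (0.26, limma adjusted p = 0.0258), as was Rnf186 (0.09, and 0.19 with that window; limma adjusted p = 0.0348). Rnf181 did not pass, and array 2 (-0.41) went against arrays 1 and 3 (0.17 and 0.14).

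Trim proteins held the lowest gene of the set. Of 8 measured genes 4 were past the test and positive (50%, beside 33.2% of all genes). Negative were 3 (37.5%, beside 37.1% of all genes) and 1 did not pass. Trim16, a ligase linked to the clearance of damaged membranes and to keratinocyte differentiation, held -1.55, -1.67 and -1.43, a mean of -1.55 ± 0.12 (SD, n = 3; limma adjusted p = 1.97e-06; 2.93-fold or 4.71-fold). Trim13, an ER membrane ligase, held -0.82, -1.39 and -0.83, a mean of -1.01 ± 0.33 (SD, n = 3), where 1 of its probes held -1.86 on array 2. Trim54, a protein of the sarcomere, had -0.31. Trim35 had 0.34, 0.71 and 0.52 on the arrays, a mean of 0.52, and 0.97 with a window of 5, and Trim12a, a mouse relative of the antiviral Trim5, had 0.39. Trim47 had 0.34 but changed sign with windows of 5 and 20 (-0.22 and -0.07; limma adjusted p = 0.0695 and 0.266), and Trim59 had 0.19 with a call that ended without array 1 or array 3 (limma adjusted p = 0.165 and 0.148). Trim29 did not pass (0.06), but was positive with a window of 20 (0.16, limma adjusted p = 0.0248). Trim10, known from red cell maturation, held 1.11 on array 3 and 0 on the others.

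**Figure D3:**
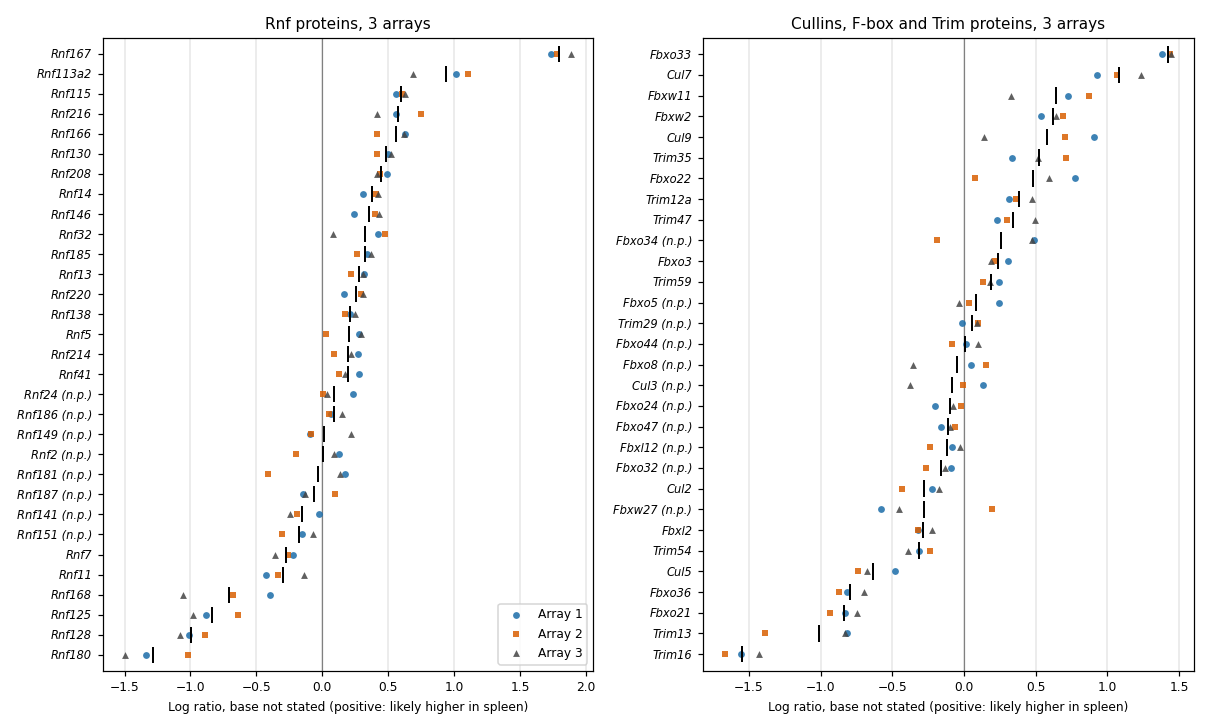
Log ratio on each array (symbols) and mean of the 3 arrays (black line) of the measured Rnf proteins (left) and of cullins, F-box and Trim proteins (right), with n.p. beside genes that did not pass the test. Rnf167 and Fbxo33 are the highest at 1.80 and 1.42, and Trim16 and Rnf180 the lowest at -1.55 and -1.28.

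The other ligase families had few measured members. Ube3a, the HECT ligase lost in Angelman syndrome, held 0.02, -0.19 and -0.05 and did not pass, and Ube4b, a U-box factor that extends chains, held -0.18, -0.12 and -0.02 and did not pass. Ube4b had -0.56 with a window of 5 (limma adjusted p = 0.00728). Ubr7, of a family whose members include readers of protein N-termini, held -0.26, -0.30 and -0.10, a mean of -0.22 ± 0.11 (SD, n = 3), with a call that ended without array 1 or array 2 (limma adjusted p = 0.119 and 0.0790).

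Deubiquitinases were more often positive. Of 21 measured Usp, Uch and Otu genes 10 were past the test and positive (47.6%, beside 33.2% of all genes). Negative were 4 (19.0%, beside 37.1% of all genes) and 7 did not pass, and the median of the 21 was 0.12. Otud5, a negative regulator of the interferon response also known as DUBA, held 1.44, 1.34 and 1.40, a mean of 1.39 ± 0.049 (SD, n = 3; limma adjusted p = 1.82e-06; 2.63-fold or 4.03-fold), with probes at 1.40 and 1.38. Usp32, a protease of endosomal membranes, held 1.22, 1.19 and 1.23, a mean of 1.21 ± 0.020 (SD, n = 3). Usp7, which protects the p53 ligase Mdm2, held 1.06, 1.49 and 0.89, a mean of 1.15 ± 0.31 (SD, n = 3). Usp32 had a smaller SD over the arrays than Usp7 at a similar mean. Usp48 held 0.72, 0.92 and 0.79, a mean of 0.81 ± 0.10 (SD, n = 3). Otud7b, which restrains NF-kappaB signalling and is called Cezanne, had 0.58 and fell to 0.30 with a window of 5, and Usp45 had 0.46.

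Smaller positive ratios passed for Usp24 (0.34), Usp50 (0.20), Otub2 (0.19) and Usp39 (0.19), the last a splicing factor that lacks protease activity. The calls of Usp50, Otub2 and Usp39 ended without array 1 and without array 3, with limma adjusted p between 0.0912 and 0.218, and Usp50 had -0.09 with a window of 5. Of 4 Otub2 probes 2 were past the probe test.

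Negative deubiquitinases were Usp42, Usp20, Uchl1 and Uchl5. Usp42 held -0.39, -0.81 and -0.61, a mean of -0.61 ± 0.21 (SD, n = 3), but a second probe held 0.22 and 0.35 on arrays 1 and 3, and with probes measured on at least 2 arrays the call ended (-0.34, limma adjusted p = 0.0673). Usp20 had -0.43 and -0.03 with a window of 5 (limma adjusted p = 0.564), and its call also ended without array 1 (limma adjusted p = 0.0558). Uchl1, an abundant neuronal hydrolase, held -0.10, -0.36 and -0.14, a mean of -0.20 ± 0.14 (SD, n = 3). Uchl5, which edits chains at the proteasome, held -0.15, -0.17 and -0.25, a mean of -0.19 ± 0.054 (SD, n = 3). The calls of both Uch genes ended with the arrays centred on their medians (limma adjusted p = 0.0753 and 0.0512). Leaving out array 1 or array 3 also ended both (limma adjusted p from 0.0677 to 0.225), and array 2 that of Uchl1. Otud6b was the lowest Otu gene, with 0.01, -0.10 and 0.17, and did not pass. Otud1 did not pass either, with 0.61 on array 2 against -0.18 and -0.12, and became positive with windows of 5 and 20 (0.32 and 0.41). Usp9x, Usp10, Usp16, Usp25 and Usp46 did not pass, with means between -0.13 and 0.12, and Usp25 was positive with a window of 20 (0.24, limma adjusted p = 0.0109).

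**Figure D4:**
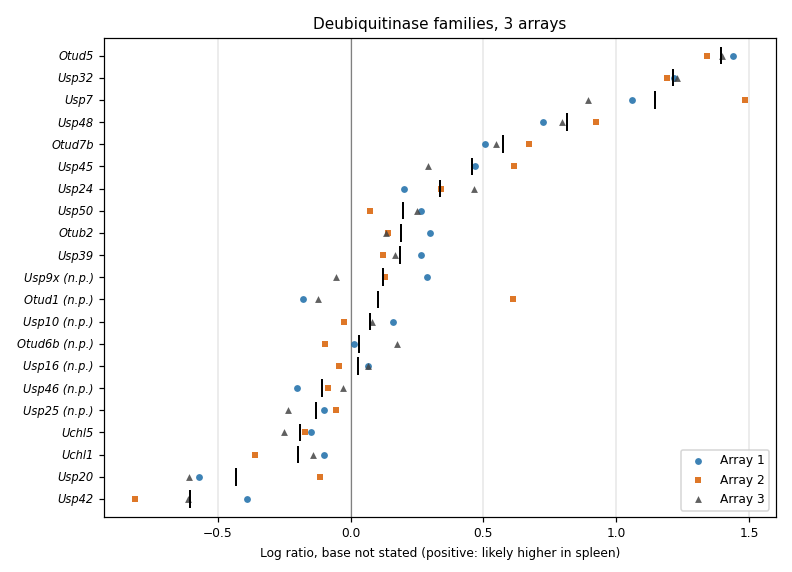
Log ratio on each array (symbols) and mean of the 3 arrays (black line) of the 21 measured genes of the Usp, Uch and Otu families, with n.p. beside genes that did not pass the test. Otud5, Usp32 and Usp7 lie between 0.89 and 1.49 on every array, and Usp42 is the lowest at -0.61.

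Of the 5 RNAs that RefSeq does not list as protein-coding or does not hold, 1 was positive (20%, beside 33.2% of all genes). Negative were 2 (40%, beside 37.1% of all genes) and 2 did not pass. The strand that a probe reads is not given in the sources used here, so an antisense RNA and its partner cannot be told apart. Usp46os1 held -0.06, -1.34 and -0.24, with a mean of -0.54 ± 0.69 (SD, n = 3) that did not pass, and array 2 alone was far below 0. Without array 1 or array 3 it was called (-0.79 and -0.70). The call without array 3 does not use the gene's own spread, since limma then gave all genes 1 common variance. Usp46 itself had -0.11 and did not pass. Ube4bos3 had -0.34, but 0.02 with a window of 5, and its call ended without array 3 (-0.22, limma adjusted p = 0.0895). Fbxl12os held 0.11, 0.26 and 0.16, a mean of 0.18, beside -0.12 for Fbxl12, whose second probe held 0.92 and 0.90 on arrays 1 and 2. The call of Fbxl12os ended when any 1 array was left out (limma adjusted p = 0.0838, 0.125 and 0.150 without arrays 1 to 3).

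Probes of the same gene were compared next. Tested one by one, 66 of the 160 probes were past the test and positive, beside 3580 of all 11086 probes (32.3%). Negative were 38 of the 160, beside 3996 of all probes (36.0%). Several measured probes stood for 31 genes, and the means of a gene's probes spanned a median of 0.18. In 10 of the 31 genes all probes were called in 1 direction. Probes of 3 genes were called in opposite directions (9.68%, beside 9.32% of the 1491 genes with several probes in all). Rnf32, a gene known from testis, held 0.42, 0.47 and 0.08 on the arrays, a mean of 0.33, from probes at 0.81, 0.52 and -0.35, and its call ended without array 1 or array 2 (limma adjusted p = 0.0852 and 0.0554). Usp16, which removes ubiquitin from histone H2A, held 0.06, -0.04 and 0.07, a mean of 0.03 that hides probes at 0.59, 0.02 and -0.52. Usp46os2 held 0.02, -0.22 and 0.01, a mean of -0.06, from probes at 0.21 and -0.34, and was called with a window of 20 (-0.27, limma adjusted p = 0.00271). Rnf151 did not pass (-0.18), but was called by the larger of its probes (-0.35). Rnf141 did not pass (-0.16), but a second probe held -0.79 and -0.78 on arrays 1 and 3, and with probes measured on at least 2 arrays it was called (-0.37), as it was with windows of 5 and 20 (-0.66 and -0.20).

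Keeping exact zeros as values ended 26 of the 76 calls. For 11 genes the ratio itself moved, since their own probes hold zeros: Ube2l6, Ube2d3, Ube2j2, Fbxo22, Rnf128, Rnf32, Rnf5, Usp24, Usp39, Usp42 and Fbxl12os. For the other 15, namely Ube2cbp, Ubr7, Cul2, Cul9, Fbxw11, Rnf168, Rnf11, Rnf41, Rnf214, Trim47, Uchl1, Usp20, Usp50, Otub2 and Ube4bos3, no probe holds a zero and the ratio was unchanged. Only the p of these 15 moved (limma adjusted p from 0.0577 to 0.153), as the setting tests more genes and changes the variance that limma shares among them. Genes that kept their call but have a second probe at 0 on every array had smaller ratios under this setting, with 0.47 for Rnf113a2, 0.43 for Ube2r2 and 0.30 for Rnf115.

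**Figure D5:**
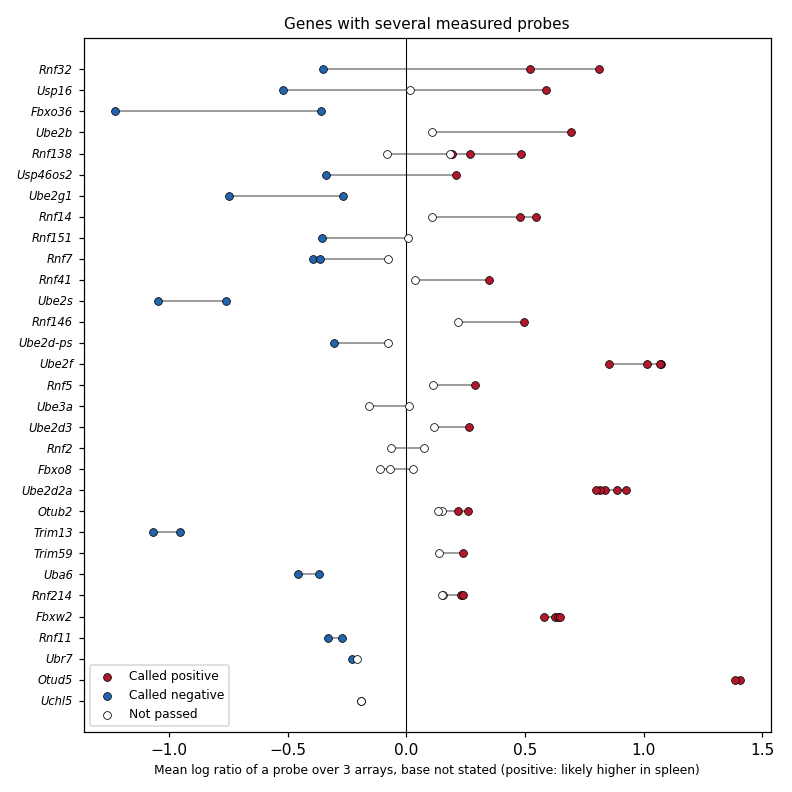
Mean log ratio over 3 arrays of each measured probe (circles) of the 31 genes with several measured probes, ordered by the span between a gene's probes. Red and blue circles passed the probe test, white ones did not, and at Uchl5 a white circle covers a blue one. Rnf32 and Usp16 have probes called on both sides of 0, and the probes of Ube2d2a and Fbxw2 lie close together.

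Of the 39 genes that were not measured on all arrays, 20 held 0 on every array and probe, 10 had a value on 1 array at most per probe and 9 on 2 arrays. An exact 0 is read as no measurement, so these genes are not to be read as unexpressed. Ube2j1, a membrane-bound E2 of ER-associated degradation, held -0.68 and -0.49 on arrays 1 and 3, on the side of Ube2j2 (-0.50). Usp36 held 0.36 and 0.41 on arrays 2 and 3, Trim37 0.35 and 0.18 on arrays 1 and 2, and Fbxo45 -0.34 and -0.30 on arrays 1 and 2. Single values were 0.83 for Rnf170 and -0.80 for Usp14, a deubiquitinase of the proteasome, both on array 1.

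Other genes of the pathway went both ways and were more often negative, unlike the 110 genes (48 positive and 28 negative, median 0.08). A list of 140 such genes, with other symbols, had 75 on the array and 54 measured, of which 20 were past the test and positive (37.0%, beside 33.2% of all genes), 27 negative (50%, beside 37.1%) and 7 not passed, and their median was -0.22. The list was chosen with earlier results of these data known. Its subgroups are small, and their counts stand beside 33.2% positive and 37.1% negative over all genes. Regulators of cullins were negative in 6 of 7 cases. The exchange factors Cand2 and Cand1 had -1.17 and -0.67. Cops4, a subunit of the COP9 signalosome, which takes NEDD8 off cullins, had -0.96. Dcun1d1, which promotes the attachment of NEDD8, was positive at 0.89. Of 22 ligases and ligase subunits 8 were positive, 11 negative and 3 did not pass. The membrane ligase Marchf2 had 2.74, Peli1, a ligase of Toll-like and T cell receptor signalling, 1.85, Cdc20, the activator of the anaphase-promoting complex, -1.03, and Herc4 0.97. Of 11 deubiquitinases and related proteases with other symbols 6 were positive and 4 negative, with Cyld, which trims signalling chains, at 0.59 and Atxn3 at -0.77. Of 6 ubiquitin-like modifiers 3 were positive and 2 negative, led by Sumo3 at 0.58. Of 5 activating and conjugating enzymes with other symbols 1 was positive, Atg3 of autophagy at 0.81, and 3 were negative, with Sae1, a subunit of the SUMO activating enzyme, at -0.65. Of 3 shuttle and extraction factors Faf1 was positive at 1.01 and Ufd1 negative at -0.17.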

How the data were processed

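Signed log ratios, other values of no stated scale, were deposited by the authors for 16273 probes on each array. Per the labels' protocols the cRNA came from a single amplification round, with red dye for spleen; how the images were read, corrected and normalized is not given in the sources used here. Exactly 0 was deposited for 24.2%, 26.8% and 24.9% of probes and taken as missing, so that 11086 probes had values from every array, 8591 of them with 1 symbol. Symbols came from the platform annotation (12336 probes with 1 symbol, 61 with several, 3876 unnamed here), and RefSeq (GRCm38.p6) held the gene IDs of 12228 and changed 0 symbols. The probes of a gene were averaged into 6077 genes, and limma 3.58.1 (R 4.3.3) compared each mean ratio with 0 (intercept fit, moderated variance, two-sided, Benjamini-Hochberg adjusted over all genes, called under 0.05). The fit was tested on simulated data. The design had assumed log2 ratios, and the values were tested as deposited. Families follow the symbols. Values for each array are given for the 10 highest and 10 lowest called genes with 1 sign on all arrays, the highest and lowest gene of each family and genes whose probes disagree, and for some further genes chosen after their values were seen. The members and lists were chosen with earlier results of these data known. Other settings were centring, scaling, quantile normalization, robust or no moderation, a threshold of 0.01 in place of 0.05, a test against 1.5-fold, read in base 2, probes measured on at least 2 arrays, the median or the largest of a gene's probes, zeros kept, removal of a running median along the probe numbers (windows of 5 or 20 to each side), and leaving out each array. Python 3.11.15 and matplotlib 3.10.9 made the figures.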

Additional observations from a re-analysis of the deposited data

How the results depend on the processing

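Of the 76 calls, 38 (26 positive and 12 negative) ended under none of 13 settings, and 17 (11 positive and 6 negative) under none of 16, which add the 3 stricter tests: no moderation, an adjusted p under 0.01 and a test against a 1.5-fold change. Those 17 were Rnf167, Fbxo33, Otud5, Usp32, Cul7, Ube2f, Rnf113a2, Ube2h, Ube2r2, Ube2d2a, Usp48, Fbxo36, Rnf125, Fbxo21, Ube2s, Rnf180 and Trim16. Scaling, quantile normalization, robust moderation and the median of probes ended 0 calls, and centring ended 2. Without an array the set had 34 to 47 positive and 23 to 27 negative calls. Over all genes there were then 1715 to 1945 positive and 1945 to 2206 negative calls. The F-box proteins had 3 to 6 positive calls and the deubiquitinases 1 to 3 negative ones, beside 5 and 4 with all arrays. Without array 3 limma gave all genes 1 common variance, so that those calls do not use a gene's own spread. With an array left out each test rests on 2 arrays, and a call could end while its ratio hardly moved. Trim59 had 0.188 with all arrays and 0.189 without array 3. Other ratios moved more, as that of Fbxo22 from 0.48 to 0.33 without array 1.

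Without moderation the positive calls were 26 in the set, 15 for ligases and their subunits, 10 for Rnf proteins, 3 for F-box proteins and 4 for deubiquitinases, and the negative ones 17 in the set and 0 for deubiquitinases (2 at an unadjusted p under 0.05); 20 probes were negative. Over all 6077 genes the calls without moderation were 1375 positive and 1395 negative. Against a 1.5-fold change the set had 13 positive and 8 negative calls, beside 626 and 582 over all genes. Conjugating enzymes had 5 and 1, ligases and their subunits 4 and 7, Rnf proteins 2 and 3, and F-box proteins 1 positive. Deubiquitinases had 4 and 0 (0 at an unadjusted p under 0.05, against this larger change). At an adjusted p under 0.01 there were 11 positive Rnf, 3 positive F-box and 2 negative deubiquitinase calls. All genes had 1653 positive and 1849 negative calls at that threshold. With zeros kept, which changes p also for genes without zeros, 18 calls of the set were negative. These settings left 3 positive F-box, 3 negative Rnf, 6 positive and 1 negative deubiquitinase call. Among all genes tested with zeros kept, 1601 were positive and 1662 negative. With a window of 5, 3 conjugating enzymes and 2 deubiquitinases were negative. After centring 2 deubiquitinases were so, and with probes measured on at least 2 arrays 1 was. Over all genes the negative calls were 1954, 2145 and 2364 in that order. The sign of a ratio changed with a window of 5 for Rnf166 (-0.16), Trim47 (-0.22), Usp50 (-0.087), Ube2d3 (-0.0197) and Ube4bos3 (0.0162), and with a window of 20 for Trim47 (-0.069) and Usp25 (0.24), which had not passed before. The running median includes the probe itself, so it can remove real ratios, and the cause of these changes was not tested. In natural logs 22 genes reached 2-fold, and 11 in base 2. No paired analysis was possible because the arrays form 1 group. Signal over background is unknown, since no intensities were analysed here.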
